A study of Mus musculus with 9 samples.

Results

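Type I interferon response genes, the transcripts that cells switch on when interferon alpha or beta binds its receptor, were followed in mouse sublingual glands before and after irradiation. The 44 genes are a fixed list of interferon-stimulated genes, matched to the count tables by symbol. The list was chosen with earlier results of these data known, so the shares of it called below are a description and not a test of the list. All 44 were among the 54532 genes of the tables and all 44 were among the 15348 genes that passed the filter on low counts. RNA came from cut sections of the sublingual gland, a salivary gland of mostly mucous acini under the tongue, of wild-type mice. There were 3 groups of 3 libraries: glands without radiation (control), and glands taken 7 or 14 days after 10 Gy. The labels name no strain, age or sex. They number the libraries without stating that each came from a separate animal, and the p-values here measure only how far these libraries spread, which may be technical.

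Interferon alpha and beta bind a receptor of 2 chains, Ifnar1 and Ifnar2, whose kinases Jak1 and Tyk2 phosphorylate STAT proteins, Stat2 among them. With Irf9 these form a complex that enters the nucleus and binds a short repeat, the interferon-stimulated response element, in the promoters of its target genes. Most of the targets act against viruses: sensors of foreign RNA, enzymes that degrade or edit RNA, proteins that block translation or budding, and the ubiquitin-like protein Isg15. Many of them are expressed at a low level in tissue with no infection, and interferon gamma induces some of them as well.

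Each library held between 15962399 and 19441239 counts, and 3 counts corresponded to 0.159 to 0.202 CPM (counts per 1000000 counts of the library, scaled by TMM). Mucin 19, the gel-forming mucin of these acini, stood at 30258 to 46199 CPM in the 9 libraries, as the label of the tissue implies. Control library 3 stood apart in kallikreins and other markers of the granular ducts of the neighbouring submandibular gland. Their summed level was 697 CPM there and 269 to 383 CPM in the other 8 libraries, and results are given below without that library where it matters. Levels also moved with gene length: across genes, the Spearman correlation of exonic length with the difference from the control mean was −0.203 to 0.258 in controls, 0.339 to 0.417 at day 7 and 0.269 to 0.285 at day 14. The interferon genes had a median exonic length of 3856 bases, against 4111 for all tested genes.

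At day 14 the interferon-stimulated genes stood above their control level as a group, and the 3 libraries differed among themselves in how far. The median of the 44 log2 differences from the control mean was 1.28 in day 14 library 1, 0.34 in library 2 and 0.91 in library 3. At day 7 it was 0.21, −0.14 and 0.42, and in the controls themselves −0.07, −0.11 and 0.18, so day 7 libraries 1 and 3 lay above the range of the controls and library 2 below it, and each day 14 library lay above it. The median over all tested genes was between −0.01 and 0.05 in every library.

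Counted gene by gene, 43 of the 44 genes in day 14 library 1 were above all 3 controls, as were 24 in library 2 and 41 in library 3. Of all tested genes, 28.9%, 30.1% and 32.1% were above all 3 controls in these libraries. At day 7 the numbers were 21, 4 and 26 genes, while 6, 17 and 4 genes were below all 3 controls. Of all tested genes, 36.6%, 33.8% and 34.9% were above and 35.2%, 32.5% and 31.2% below all 3 controls in the day 7 libraries. Summed over the 44 genes, the level was 511, 493 and 630 CPM in the controls, 608, 484 and 673 CPM at day 7, and 1140, 670 and 930 CPM at day 14. The sum in day 14 library 2 was about the same as in day 7 library 3.

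**Figure D1:**
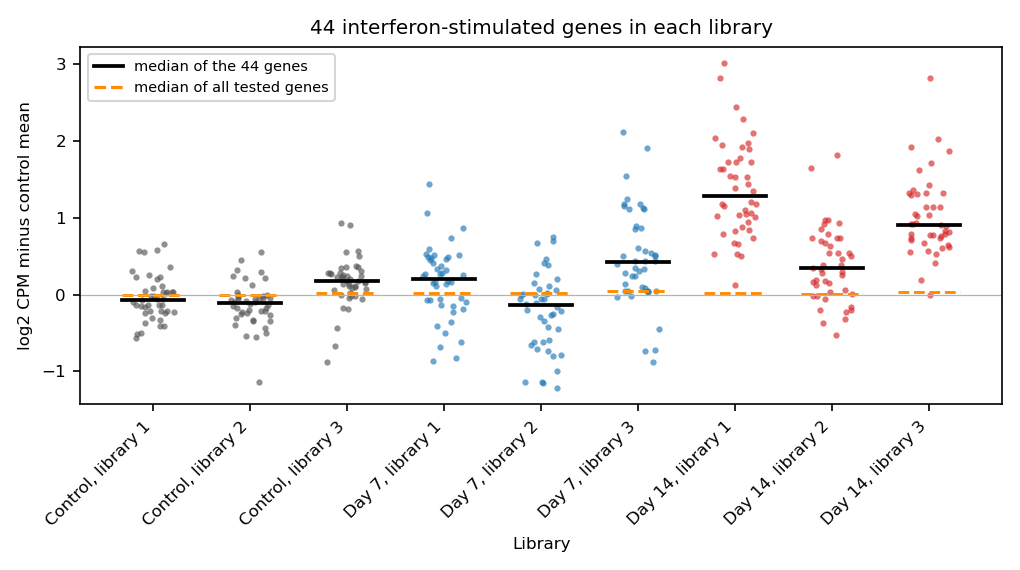
Difference of each of the 44 interferon-stimulated genes (points) from its control mean, as log2 CPM, in each of the 9 libraries; black bars are the median of the 44 genes and dashed bars the median of all tested genes. The black bars of day 14 libraries 1, 2 and 3 are at 1.28, 0.34 and 0.91, while the dashed bars stay between −0.01 and 0.05.

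At day 7 and day 14 most of the genes ordered the libraries of their group alike, and among controls the order was less shared. Day 14 library 1 held the highest value of its group for 37 of the 44 genes and day 14 library 2 the lowest for 40, against 32.2% and 35.5% of all tested genes. Day 7 library 3 was the highest for 35 genes and day 7 library 2 the lowest for 35 (all tested genes 34.9% and 29.1%). Among controls, library 3 was the highest for 27 genes and library 2 the lowest for 21 (all tested genes 38.6% and 29.9%). Control library 1 was the lowest for 17 (all tested genes 36.8%). The genes of 1 library share its RNA, so these counts are a description and carry no test.

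**Figure D2:**
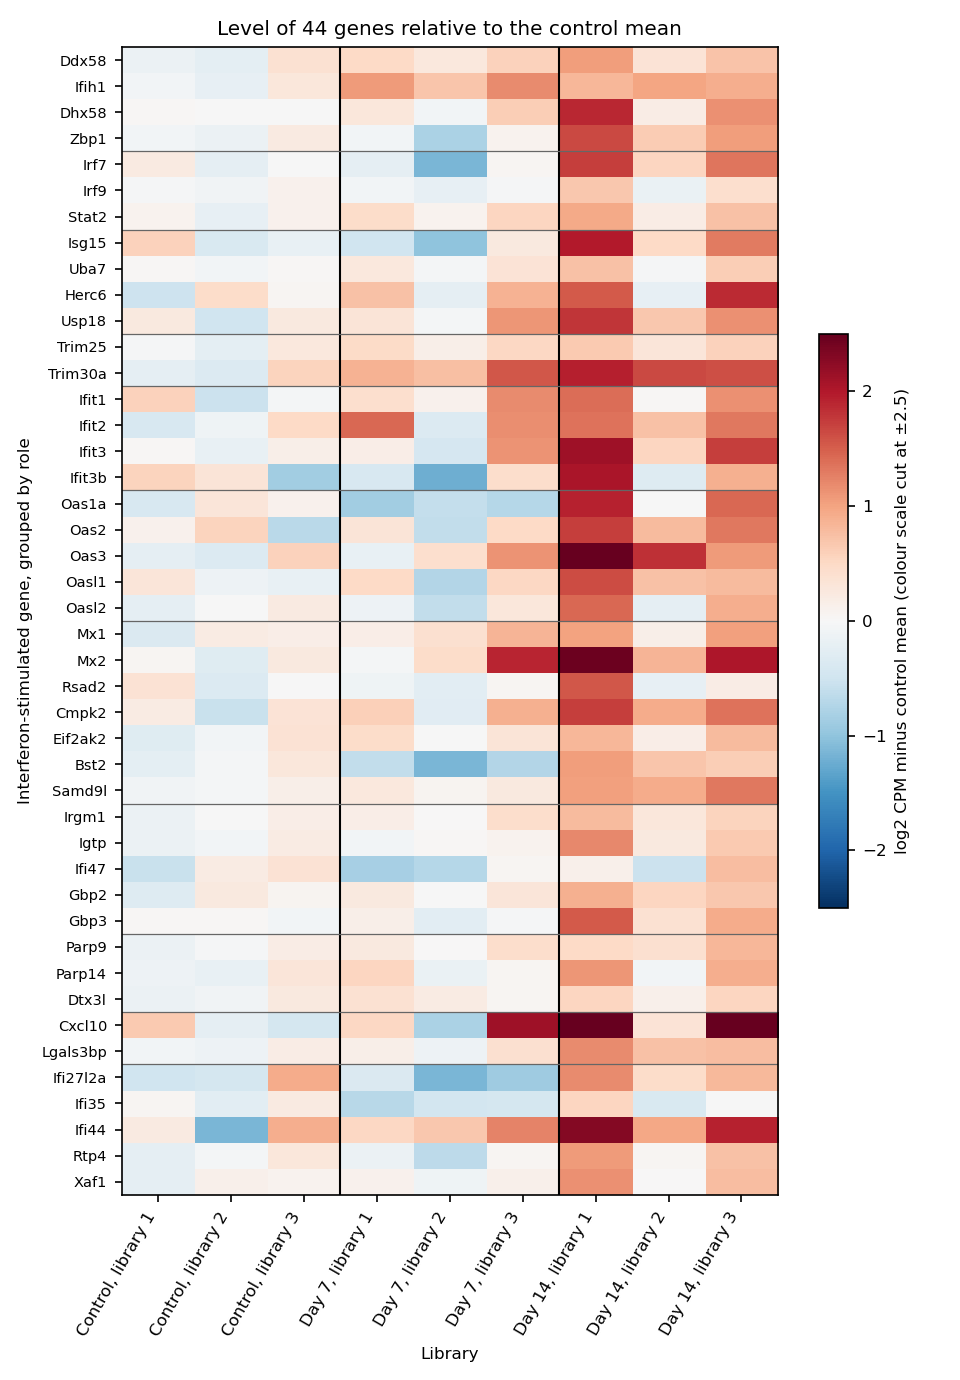
Log2 CPM of each of the 44 genes (rows, grouped by role) minus its control mean, in each of the 9 libraries (columns); red is above and blue below the control mean, with colours cut at 2.5 on either side. Red fills the columns of day 14 libraries 1 and 3, where 44 and 43 genes are above the control mean, and is paler in day 14 library 2, where 34 genes are.

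The comparison of each time with control asks which interferon-stimulated transcripts differ after irradiation. Genes were tested one by one with edgeR's quasi-likelihood F test on all 15348 genes and called at a Benjamini-Hochberg adjusted p under 0.05. At day 7, 4 of the 44 genes passed (9.09%, against 30.6% of all tested genes): Ifih1 and Trim30a rose, and Bst2 and Ifi35 fell. Their share was below that of all tested genes. The median log2 fold change of the 44 genes was 0.20, that of all tested genes 0.02, and 30 of the 44 were above 0 (51.7% of all tested genes). For 2 genes every day 7 library was above every control (background 22.2%), and for 3 genes every one was below (background 21.7%). With a correction for gene length and GC content only Ifih1 passed of the 44, against 21.7% of all tested genes.

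At day 14, 9 of the 44 genes passed and all 9 rose (20.5%, against 1.76% of all tested genes called and 1.13% called higher): Lgals3bp, Ifih1, Trim30a, Samd9l, Bst2, Gbp3, Cmpk2, Zbp1 and Irgm1. No gene of the list was called lower by edgeR, DESeq2 or limma-voom, and none was lower at an unadjusted p under 0.05. All 44 log2 fold changes were above 0 (51.5% of all tested genes), from 0.08 to 2.52 with a median of 0.89 (all tested genes 0.01), and 37 genes had an unadjusted p under 0.05 (84.1%, background 21.3%). For 24 genes every day 14 library was above every control (54.5%, background 12.4%). DESeq2 called 26 and limma-voom 23 of the 44 genes at the same threshold, against 6.79% and 10.9% of all tested genes.

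Between the 2 times, 9 of the 44 genes were higher at day 14 than at day 7 and none lower (20.5%, against 6.59% of all tested genes called and 3.72% called higher): Bst2, Lgals3bp, Oas1a, Zbp1, Gbp3, Samd9l, Isg15, Rtp4 and Oas2. All but Ifih1, at −0.09, had a log2 fold change above 0, up to 2.07 with a median of 0.76 (all tested genes 0.00, of which 50.2% were above 0). For 17 genes every day 14 library was above every day 7 library (38.6%, background 15.9%). DESeq2 called 14 and limma-voom 20, against 9.24% and 12.2% of all tested genes. Counts by these tools for single roles below are to be set beside these shares, and at day 7 against control beside 32.3% and 39.0%. The 3 comparisons use the same groups in pairs, so they are not independent of each other.

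**Figure D3:**
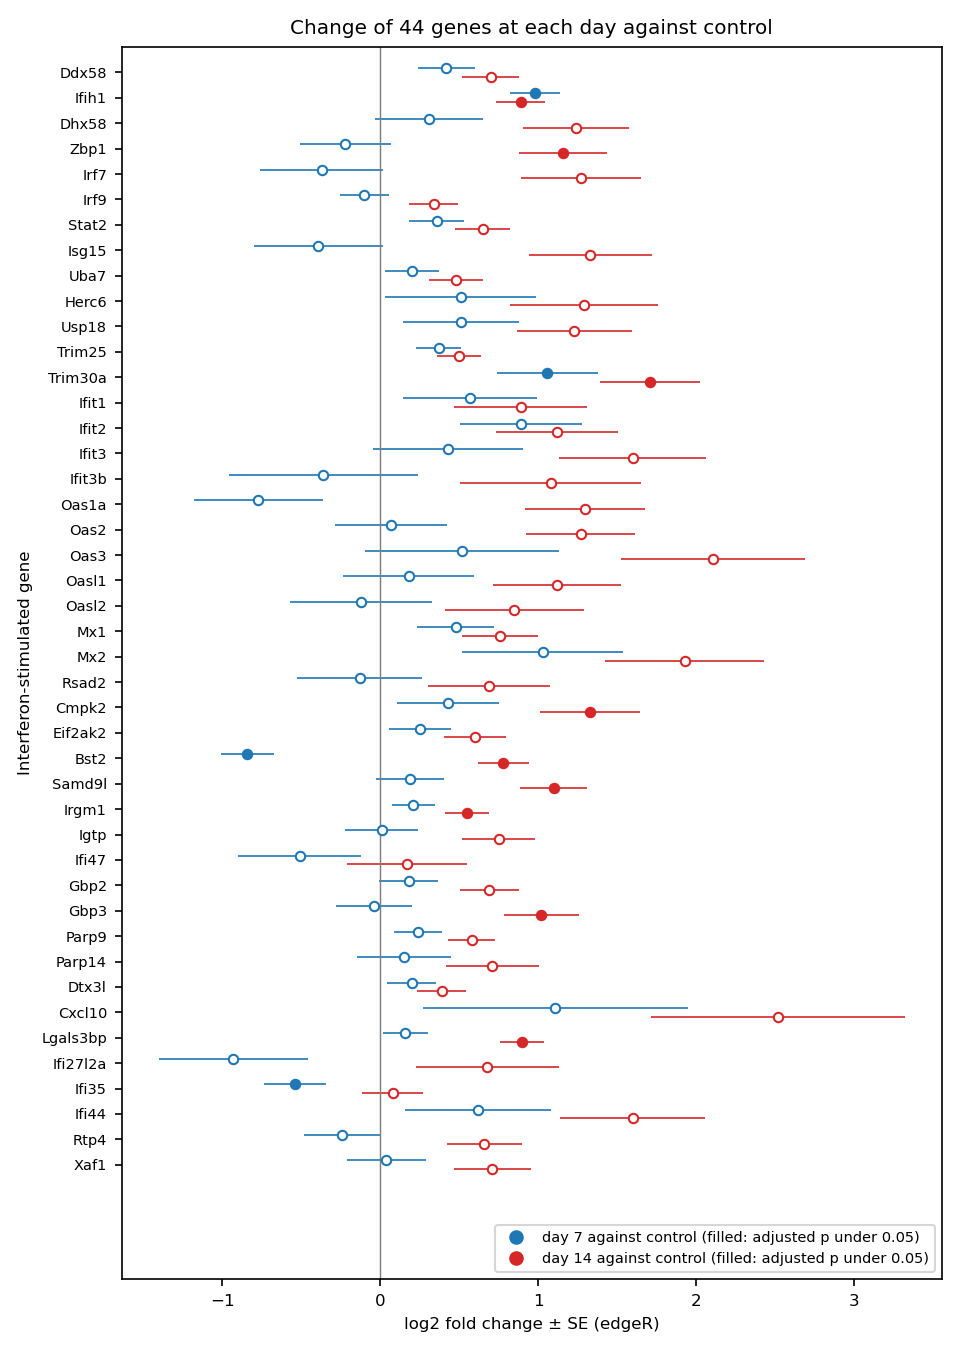
Log2 fold change (edgeR, points) with its standard error (bars) of the 44 genes at day 7 (blue) and day 14 (red) against control, grouped by role; filled points passed an adjusted p of 0.05. The red points are all above 0, with 9 filled, and the blue points lie on both sides of 0, with 4 filled.

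The number of calls at day 14 turned on single libraries, the controls among them, while the direction did not. Without control library 1 or 2 none of the 44 genes was called against control, without control library 3 there were 20, without day 14 library 1 there were 3, and without day 14 library 3 only Lgals3bp passed. Without day 14 library 2 there were again 9, of which 4 were among the original 9. The background moved too, from 13 of 15807 tested genes without control library 1 to 1939 of 15758 without control library 3. It was 0.449%, 0.228% and 0.197% of all tested genes without day 14 library 1, 2 and 3. In these 9 fits that leave out 1 library each, the median log2 fold change of the 44 genes at day 14 stayed between 0.64 and 1.07, and 42 to 44 of them were above 0. At day 7 there were 2 calls without control library 1 or day 7 library 3, and 6 without control library 3 or day 14 library 2. Of all tested genes, 20.6%, 25.1%, 33.7% and 29.5% were called at day 7 in these fits, in this order. Between the times the count went from 4, without day 7 library 2 or day 14 library 1, and 5, without day 14 library 3, to 18, without day 14 library 2, and the median from 0.54 to 0.97.

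**Figure D4:**
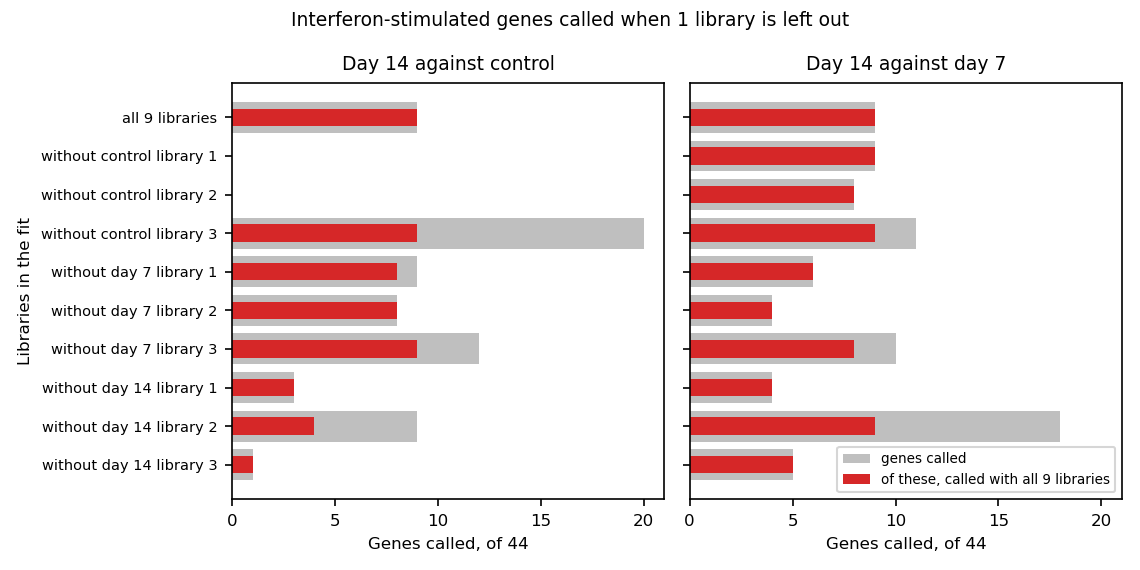
Number of the 44 genes called by edgeR (grey bars) and how many of these are called with all 9 libraries (red bars), for the fit on all libraries and for 9 fits that leave out 1 library each. At day 14 against control the grey bar runs from 0, without control library 1 or 2, to 20, without control library 3. At day 14 against day 7 it runs from 4 to 18. Of all tested genes, 0.0822% to 12.3% and 2.09% to 8.98% were called in the fits without 1 library.

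Promoter sequence was the feature outside expression that could be compared. RefSeq promoter windows, from 250 bases before to 50 bases after the start of transcription (GRCm38.p6), matched 34 of the 44 genes by symbol. The core of the interferon-stimulated response element, GAAA followed by 2 bases of any kind and a second GAAA, was searched on both strands, with overlapping matches allowed. It was in the windows of 18 of the 34 genes (52.9%) and of 1079 of all 27025 genes (3.99%). A match is a run of letters and not a measured binding site. The 18 genes with the GAAA pair had a median log2 fold change of 0.89 at day 14 against control (5 called), and the 16 genes without it 0.88 (3 called).

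The stretches that carry the letters are shown for 6 genes whose values are given below, 5 of them called in at least 1 comparison and Ifit1 as an uncalled one. Each is printed from 5′ to 3′ along the gene's strand, with every match of the GAAA pair in capitals, which reads as a TTTC pair where the match is on the other strand. The coordinates in GRCm38.p6 are chr4:156200819-156200938 (minus strand) for Isg15, chr5:120907526-120907645 (minus) for Oas1a, chr8:71537473-71537622 (minus) for Bst2, chr3:142559924-142560025 (plus) for Gbp3, chr7:104465194-104465313 (minus) for Trim30a and chr19:34640759-34640870 (plus) for Ifit1. The bases lie before the start of transcription and outside annotated exons.
Isg15: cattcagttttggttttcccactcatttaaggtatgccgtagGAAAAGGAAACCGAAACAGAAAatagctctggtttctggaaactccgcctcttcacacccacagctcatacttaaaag
Oas1a: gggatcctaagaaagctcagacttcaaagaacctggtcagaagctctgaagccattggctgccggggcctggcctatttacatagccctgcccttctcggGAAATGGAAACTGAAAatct
Bst2: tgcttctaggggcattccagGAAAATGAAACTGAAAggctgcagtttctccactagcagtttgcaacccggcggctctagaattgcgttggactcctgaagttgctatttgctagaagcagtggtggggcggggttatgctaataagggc
Gbp3: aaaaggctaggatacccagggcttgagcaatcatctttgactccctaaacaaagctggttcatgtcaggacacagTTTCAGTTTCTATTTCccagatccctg
Trim30a: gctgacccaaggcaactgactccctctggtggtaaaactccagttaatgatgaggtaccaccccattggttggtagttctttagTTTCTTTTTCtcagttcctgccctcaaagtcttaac
Ifit1: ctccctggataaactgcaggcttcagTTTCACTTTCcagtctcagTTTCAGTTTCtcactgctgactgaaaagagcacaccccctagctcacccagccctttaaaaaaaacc
Isg15 holds 3 overlapping matches in a run of GAAA repeats, Oas1a, Bst2 and Gbp3 hold 2 overlapping ones each, Ifit1 holds 2 separate ones, and Trim30a holds 1.

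Among the 4 sensors of nucleic acids, Ifih1 rose at both times and Zbp1 rose at day 14. Ifih1 (MDA5, chr2:62595798-62646255) recognises long double-stranded RNA. It stood at 11.3, 10.3 and 14.6 CPM in the controls, at 25.0, 19.5 and 27.1 CPM at day 7, and at 21.2, 23.6 and 22.6 CPM at day 14. All 6 irradiated libraries were above all 3 controls, and the 2 times overlapped. The log2 fold change was 0.98 at day 7 (SE 0.157, adjusted p = 1.85e-04) and 0.89 at day 14 (SE 0.157, adjusted p = 0.0155), with −0.09 between the times (SE 0.152, adjusted p = 0.799). Ifih1 was the one gene of the 44 called against control at day 7 in all 10 other settings of the analysis and in all 9 fits without 1 library. Its day 14 call was lost on leaving out control library 1 or 2, or day 14 library 2 or 3 (highest adjusted p = 0.09).

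Zbp1, which binds Z-form nucleic acids and can start necroptosis, had 3.96, 3.71 and 4.80 CPM in controls, 3.96, 2.36 and 4.40 at day 7, and 13.0, 6.42 and 8.55 at day 14. The day 14 libraries lay above the other 6. It rose at day 14 by a log2 fold change of 1.16 against control (SE 0.278, adjusted p = 0.0393) and of 1.38 against day 7 (SE 0.280, adjusted p = 0.00663). The call against control was lost on leaving out control library 1 or 2, or any 1 of the day 14 libraries (log2 0.85 to 1.35, highest adjusted p = 0.164), and that against day 7 without day 14 library 1 (adjusted p = 0.0581). The RNA sensors Ddx58 (RIG-I) and Dhx58 (LGP2) had log2 fold changes of 0.70 (SE 0.182, adjusted p = 0.0578) and 1.24 (SE 0.337, adjusted p = 0.0716) at day 14 against control and did not pass with edgeR. DESeq2 called all 4 sensors higher there, and limma-voom 3, with Dhx58 the exception.

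None of the 3 transcription factors of the response, Irf7, Irf9 and Stat2, passed with edgeR in any comparison, although all 3 had an unadjusted p under 0.05 at day 14 against control, where DESeq2 called 2 and limma-voom 1. Irf7, which amplifies the response by inducing further interferon genes, differed widely between libraries at day 14. Its level was 20.3, 14.9 and 17.2 CPM in controls, 14.9, 7.85 and 18.0 CPM at day 7, and 57.6, 25.3 and 43.6 CPM at day 14, so the day 14 libraries lay above the other 6 but spanned more than the whole range of those. The log2 fold change was 1.27 against control (SE 0.380, adjusted p = 0.123) and 1.63 against day 7 (SE 0.385, adjusted p = 0.0537). Stat2, a partner of Irf9 in the activated complex, stood at 47.8, 39.4 and 48.9 CPM in controls, 61.8, 47.7 and 65.8 CPM at day 7 and 87.1, 51.7 and 75.6 CPM at day 14. Its day 14 libraries were above the controls and overlapped day 7, with a log2 fold change of 0.65 against control (SE 0.174, adjusted p = 0.0663). Irf9 had 0.34 (SE 0.155, adjusted p = 0.216). Irf7 overlaps Phrf1 on the other strand, and without knowledge of the strand setting their reads cannot be told apart.

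The ISG15 system attaches the ubiquitin-like Isg15 to proteins through the activating enzyme Uba7 and the ligase Herc6, and Usp18 removes it. Isg15 itself (chr4:156199424-156200818, 3 promoter matches above) was low, at 4.51, 2.29 and 2.66 CPM in controls, 2.12, 1.48 and 3.60 CPM at day 7 and 12.0, 4.30 and 7.52 CPM at day 14. The lowest day 14 library was above all 3 day 7 libraries but below the highest control. Isg15 was 3.30-fold higher at day 14 than at day 7 (log2 1.72, SE 0.394, adjusted p = 0.0183), a call lost without day 7 library 1 or 2 or day 14 library 1 or 3 (highest adjusted p = 0.0914). Against control it did not pass with edgeR (log2 1.33, SE 0.389, adjusted p = 0.0773). Uba7, Herc6 and Usp18 had log2 fold changes of 0.48, 1.29 and 1.23 at day 14 against control with adjusted p of 0.113, 0.128 and 0.0977, and the 4 genes of the system all had an unadjusted p under 0.05 there, where DESeq2 called 1 and limma-voom 2.

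Both TRIM ubiquitin ligases on the list had positive changes at both times, and 1 of them passed with edgeR. DESeq2 called 1 at day 7 and 2 at day 14, and limma-voom 2 at each time. Trim30a (chr7:104409025-104465193), a mouse TRIM protein that restrains inflammatory signalling, was scarce, with 1.401, 1.280 and 2.429 CPM in controls, 3.04, 2.80 and 4.88 CPM at day 7 and 6.48, 5.25 and 5.14 CPM at day 14. The 3 groups did not overlap. The log2 fold change was 1.06 at day 7 (SE 0.320, adjusted p = 0.0174) and 1.71 at day 14 (SE 0.317, adjusted p = 0.0188), which is 3.27-fold. Between the times it was 0.65 (SE 0.298, adjusted p = 0.196). The day 7 call was lost on leaving out control library 1 or 2, or day 7 library 3 (highest adjusted p = 0.111), and the day 14 call on leaving out control library 1 or 2, or day 14 library 1 or 3 (highest adjusted p = 0.0924). Trim30a has close relatives beside it in the genome, and its counts are uncertain where reads were shared among them. Trim25, which ubiquitinates RIG-I, had 0.37 at day 7 (adjusted p = 0.0511) and 0.50 at day 14 (adjusted p = 0.0651).

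The IFIT genes, a cluster of 4 within 99.3 kb of chromosome 19, encode proteins that bind viral RNA and block its translation. None passed with edgeR in any comparison, and their log2 fold changes at day 14 against control ran from 0.89 to 1.60, where 2 had an unadjusted p under 0.05 and DESeq2 called 2. Ifit1, whose promoter stretch is shown above, had 8.41, 3.84 and 5.42 CPM in controls, 7.49, 6.04 and 12.7 CPM at day 7, and 14.8, 5.73 and 12.4 CPM at day 14. All 3 groups overlapped, and the change at day 14 against control was 0.89 (SE 0.420, adjusted p = 0.259). Ifit3 had a log2 fold change of 1.60 at day 14 (SE 0.466, adjusted p = 0.101) and Ifit3b 1.08 (SE 0.574, adjusted p = 0.301). Their transcripts are 98.0% identical over 1697 aligned bases, so the split of reads between them is uncertain. The promoters of the pair show the same likeness, and both hold 2 separate matches, in capitals in the stretches at chr19:34583329-34583528 (Ifit3) and chr19:34607757-34607956 (Ifit3b), both on the plus strand of GRCm38.p6.
Ifit3: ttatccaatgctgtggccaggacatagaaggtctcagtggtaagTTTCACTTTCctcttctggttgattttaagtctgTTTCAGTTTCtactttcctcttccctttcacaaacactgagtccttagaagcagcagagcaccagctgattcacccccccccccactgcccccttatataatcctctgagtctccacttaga
Ifit3b: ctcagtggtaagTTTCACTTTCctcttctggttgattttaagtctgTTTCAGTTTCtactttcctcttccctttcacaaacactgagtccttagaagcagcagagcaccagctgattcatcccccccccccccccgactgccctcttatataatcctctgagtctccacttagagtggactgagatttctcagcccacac
The matches of Ifit3b lie farther from the start of transcription than those of Ifit3.

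Oligoadenylate synthetases make a product that activates the RNA-degrading enzyme RNase L. The 5 listed genes of this family, the OAS-like Oasl1 and Oasl2 among them, had a median log2 fold change of 0.07 at day 7 and 1.27 at day 14 against control. None passed against control with edgeR, where 4 had an unadjusted p under 0.05 at day 14 and DESeq2 and limma-voom called 2 each, and Oas1a and Oas2 were higher at day 14 than at day 7. Oas1a (chr5:120896256-120907521) stood at 1.89, 3.10 and 2.71 CPM in controls, 1.356, 1.646 and 1.503 CPM at day 7 and 9.69, 2.49 and 6.87 CPM at day 14. Every day 7 library was below every control, and day 14 library 2 lay within the controls while the other two were above all 6 libraries of the earlier groups. Oas1a was 4.21-fold higher at day 14 than at day 7 (log2 2.07, SE 0.395, adjusted p = 0.00516), and it passed in all 9 fits without 1 library (log2 1.64 to 2.45). Against control it did not pass at day 7 (log2 −0.77, SE 0.406, adjusted p = 0.164) or at day 14 (log2 1.30, SE 0.380, adjusted p = 0.0732).

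Oas2 had 2.86, 3.91 and 1.64 CPM in controls, 3.31, 1.70 and 3.76 CPM at day 7 and 8.87, 4.62 and 6.71 CPM at day 14, with the day 14 libraries above the other 6. It was 2.30-fold higher at day 14 than at day 7 (log2 1.20, SE 0.343, adjusted p = 0.0432), and the call was lost without any 1 of the day 7 libraries, or day 14 library 1 or 3 (highest adjusted p = 0.193). Oas3 had the largest change of the family against control at day 14, 2.11 (SE 0.582, adjusted p = 0.0622), from the lowest level per kilobase of the 44 genes. Oasl1 and Oasl2 had 1.12 and 0.85, with adjusted p of 0.123 and 0.333. Oas1a lies among near-identical copies, and its share of their reads is uncertain.

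The 7 other antiviral effectors held the one gene of the 44 called in opposite directions at the 2 times, Bst2. Bst2 (tetherin, chr8:71534255-71537456) holds budding virus particles at the cell surface and was the second most abundant of the 44 genes per kilobase. It stood at 20.3, 23.4 and 29.3 CPM in controls, 15.6, 10.8 and 14.5 CPM at day 7 and 49.8, 39.2 and 36.9 CPM at day 14. The 3 groups did not overlap: every day 7 library was below and every day 14 library above the controls. Bst2 fell at day 7 (log2 −0.84, SE 0.166, adjusted p = 0.00116) and rose at day 14 (log2 0.78, SE 0.160, adjusted p = 0.0303), a 3.07-fold difference between the times (log2 1.62, SE 0.165, adjusted p = 1.71e-05). The difference between the times and the day 7 call held in all 9 fits without 1 library. The call at day 14 was lost on leaving out control library 1 or 2, or any 1 of the day 14 libraries (log2 0.64 to 0.91, highest adjusted p = 0.132), and the day 7 call was lost after a correction for gene length and GC content (log2 −0.49, adjusted p = 0.0502).

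Samd9l, a restriction factor for poxviruses and a brake on growth, varied little within groups. It had 3.84, 3.98 and 4.52 CPM in controls, 4.94, 4.28 and 4.88 CPM at day 7 and 8.40, 7.80 and 10.3 CPM at day 14. It rose at day 14 against control (log2 1.10, SE 0.213, adjusted p = 0.0216) and against day 7 (log2 0.91, SE 0.210, adjusted p = 0.0152), with all day 14 libraries above the other 6. The call against control was lost on leaving out control library 1 or 2, or day 14 library 3 (highest adjusted p = 0.107) and with the length and GC correction. That against day 7 was lost without day 7 library 2 or day 14 library 3 (highest adjusted p = 0.0769).

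Cmpk2, a mitochondrial nucleotide kinase encoded next to the antiviral enzyme Rsad2, had 3.35, 1.95 and 3.67 CPM in controls, 4.39, 2.36 and 5.42 CPM at day 7 and 9.69, 5.57 and 7.52 CPM at day 14. The day 14 libraries were above the other 6, and it rose against control (log2 1.33, SE 0.316, adjusted p = 0.0388). This call was lost without control library 1 or 2, without any 1 of the day 14 libraries (log2 1.09 to 1.49, highest adjusted p = 0.15), and with the length and GC correction. Mx1, a GTPase that traps viral nucleocapsids, had 6.09, 9.16 and 8.81 CPM in controls, 8.90, 10.4 and 14.3 CPM at day 7 and 15.99, 8.754 and 16.07 CPM at day 14. Day 14 library 2 lay within the controls, and the change of 0.76 did not pass with edgeR (SE 0.243, adjusted p = 0.0934). Mx2, annotated as a polymorphic pseudogene, had 1.93 (SE 0.504, adjusted p = 0.0604), Rsad2 0.69 (adjusted p = 0.315) and the kinase Eif2ak2 (PKR) 0.60 (SE 0.195), and none of these passed with edgeR. DESeq2 called 6 of the 7 effectors higher at day 14, all but Rsad2, and limma-voom 5, all but Rsad2 and Mx1.

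**Figure D5:**
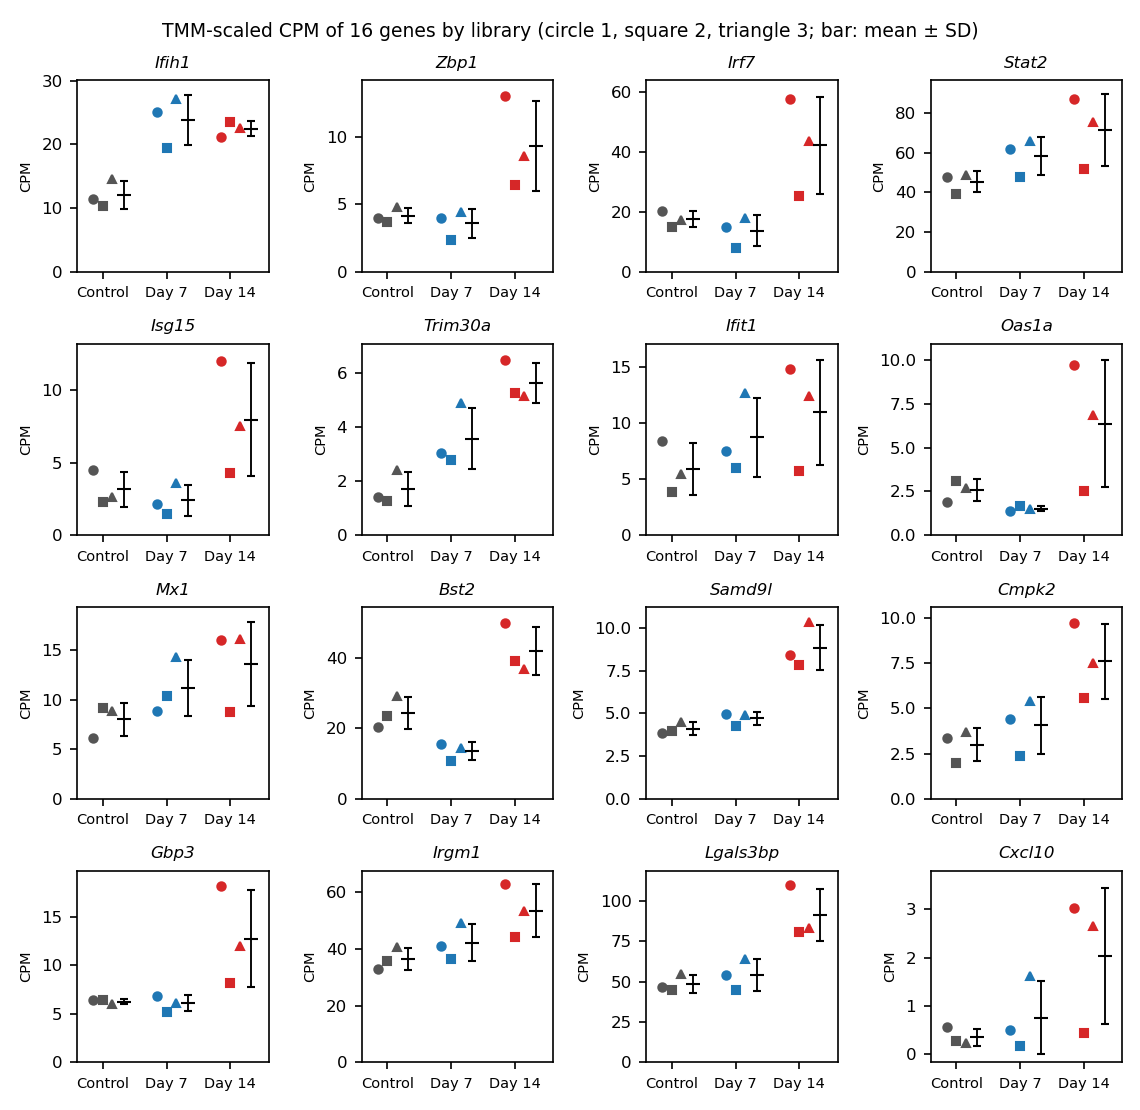
CPM of 16 of the genes in each library (circle, square and triangle for libraries 1, 2 and 3 of a group), with the mean and SD of 3 libraries as bars. Bst2 is lowest at day 7 and highest at day 14 with no overlap, Ifih1 is high at both times, and Irf7, Isg15 and Oas1a at day 14 range from 25.3 to 57.6, 4.30 to 12.0 and 2.49 to 9.69 CPM.

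Of the 5 interferon-inducible GTPases, which act on membranes around intracellular pathogens, Gbp3 and Irgm1 rose at day 14. Gbp3 had 6.396, 6.401 and 5.989 CPM in controls, 6.89, 5.21 and 6.17 CPM at day 7 and 18.2, 8.17 and 12.0 CPM at day 14. Controls and day 7 overlapped and all day 14 libraries were above them, with a log2 fold change of 1.02 against control (SE 0.237, adjusted p = 0.035) and 1.06 against day 7 (SE 0.235, adjusted p = 0.0118). The first call was lost on leaving out control library 1 or 2, or day 14 library 1 or 3 (log2 0.68 to 1.24, highest adjusted p = 0.145). The second was lost without day 7 library 2 or day 14 library 1 (log2 0.72 to 1.29, highest adjusted p = 0.102).

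Irgm1, a regulator of autophagy, had 32.9, 35.9 and 40.5 CPM in controls, 40.9, 36.6 and 49.2 CPM at day 7 and 62.7, 44.1 and 53.3 CPM at day 14. The day 14 libraries were above the controls and overlapped day 7. It rose at day 14 by 0.55 on the log2 scale (SE 0.137, adjusted p = 0.046), the call nearest the threshold, which held in 2 of the 9 fits without 1 library (without control library 3 or day 7 library 3) and in 6 of 10 other settings (log2 0.42 to 0.65, highest adjusted p = 0.201 without 1 library). Igtp and Gbp2 had 0.75 and 0.69 with adjusted p of 0.0785 and 0.0595. DESeq2 and limma-voom each called 4 of the 5 GTPases higher at day 14 against control. Ifi47, at 0.17, had the smallest change but one. The ADP-ribosyltransferases Parp9 and Parp14 and the Parp9 partner Dtx3l had 0.58, 0.71 and 0.39 at day 14, with adjusted p of 0.0522, 0.205 and 0.158. DESeq2 and limma-voom each called 2 of these 3. Parp9 and Dtx3l overlap on opposite strands.

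The 2 secreted products were at the ends of the abundance range. Lgals3bp (chr11:118392751-118402092), a glycoprotein that binds galectins and matrix, stood at 46.5, 44.7 and 55.1 CPM in controls, 54.0, 44.8 and 64.4 CPM at day 7 and 109.8, 81.0 and 83.4 CPM at day 14. The day 14 libraries lay above the other 6. It had the smallest adjusted p of the 44 genes at day 14 against control (log2 0.90, SE 0.141, adjusted p = 0.00946; 1.87-fold), and was also higher than at day 7 (log2 0.75, SE 0.140, adjusted p = 0.00515). The call against day 7 held in all 9 fits without 1 library, and that against control in 7 of 9, being lost without control library 1 or 2 (highest adjusted p = 0.078). Cxcl10, a chemokine that attracts T cells, rested on few reads: 9, 4 and 4 counts in controls, 9, 3 and 30 at day 7, and 52, 8 and 49 at day 14. The fitted log2 fold change of 2.52 at day 14 was the largest of the list and did not pass with edgeR (SE 0.802, adjusted p = 0.0934). At day 7 it was 1.11 (SE 0.837, adjusted p = 0.346) and turned to −0.09 without day 7 library 3. Cxcl10 lies inside Art3, on the other strand.

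The remaining 5 interferon-induced genes include the most abundant of the 44 per kilobase, Ifi27l2a, a small membrane protein. It had 17.2, 18.1 and 46.7 CPM in controls, 19.04, 11.03 and 13.20 CPM at day 7 and 55.4, 33.5 and 43.1 CPM at day 14. Control library 3, which stood apart in submandibular markers, was level with the day 14 libraries. With it the change at day 14 was 0.68 (SE 0.453, adjusted p = 0.441), and without it 1.29 (adjusted p = 0.00698). Against day 7 it was 1.61 (SE 0.469, adjusted p = 0.103), with every day 14 library above every day 7 library, and 1.60 without control library 3 (adjusted p = 0.00102).

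Ifi35, a partner of leucine-zipper factors, had 21.08, 16.98 and 24.01 CPM in controls, 12.69, 14.98 and 15.03 CPM at day 7 and 29.7, 15.8 and 20.4 CPM at day 14. It fell at day 7 (log2 −0.54, SE 0.195, adjusted p = 0.0446), a call that held in 3 of the 9 fits without 1 library (without control library 2 or day 14 library 1 or 2; highest adjusted p = 0.154) and not with the length and GC correction (log2 −0.29, adjusted p = 0.284). Its change at day 14 was the smallest of the list (log2 0.08, SE 0.192, adjusted p = 0.849). Rtp4, a chaperone of receptors, had 9.81, 11.0 and 13.8 CPM in controls, 10.3, 7.24 and 11.8 CPM at day 7 and 23.9, 11.9 and 19.1 CPM at day 14. It was higher at day 14 than at day 7 (log2 0.90, SE 0.237, adjusted p = 0.0343), with the lowest day 14 library just above the highest day 7 library. Leaving out control library 2, day 7 library 1 or 2, or day 14 library 1 or 3 ended that call (highest adjusted p = 0.151). Rtp4 overlaps Masp1 on the other strand and Gm45338 on its own. Ifi44 and Xaf1 had 1.60 and 0.71 at day 14 against control, with adjusted p of 0.0865 and 0.106.

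Per kilobase of exon, the level in controls ran from 0.0651 CPM per kb for Oas3 to 59.0 ± 36.2 for Ifi27l2a (SD, n = 3), followed by Bst2 at 26.9 ± 5.02, Lgals3bp at 17.1 ± 1.94 and Ifi35 at 12.0 ± 2.05. The first 2 in this order overlap within their spread because of control library 3. At day 14 the same first 3 stood at 95.1 ± 23.7, 46.5 ± 7.67 and 32.1 ± 5.61 CPM per kb. The 44 genes lie on 15 chromosomes, and 15 of them overlap a gene on the opposite strand, whose reads cannot be told apart without the strand setting. A gene on the same strand overlaps 7 of the 44, which no strand setting separates. Of the 44 genes, 22 form 9 groups of neighbours no more than 1 Mb apart. Neighbours could differ in the size of their change: at day 14 against control Mx1 had 0.76 and Mx2 1.93, Rsad2 0.69 and Cmpk2 1.33, and Ifi35 0.08 and Dhx58 1.24.

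Upstream of these genes, the interferons themselves were at the floor of detection. Of 20 ligand genes, among them the beta gene Ifnb1, the alpha genes and Ifng, 19 had 0 counts in all 9 libraries, which allows up to 3 counts per library, and Ifnk had 2 counts in day 7 library 3. The receptor chains showed no call: Ifnar1 had 0.31 at both day 7 (adjusted p = 0.0761) and day 14 (adjusted p = 0.171), and Ifnar2 −0.20 (adjusted p = 0.337) and −0.05 (adjusted p = 0.885). Of 16 tested genes for receptors and signalling, 4 rose and 1 fell at day 7 (background 15.8% and 14.8%). None was called at day 14 by edgeR, where 5 were higher at an unadjusted p under 0.05 and DESeq2 and limma-voom called 1 each. Jak1 stood at 83.4, 87.3 and 97.7 CPM in controls, 137.4, 140.6 and 119.4 CPM at day 7 and 97.2, 118.7 and 107.2 CPM at day 14. It rose at day 7 (log2 0.57, SE 0.101, adjusted p = 4.37e-04), as did Jak2 (0.63), the STAT inhibitor Pias1 (0.56) and Stat3 (0.27), and Ifngr2 fell (−0.41). Of these, Pias1 and Stat3 were not called with the length and GC correction, and Stat3 held in 4 of the 9 fits without 1 library.

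Genes that sense nucleic acids and induce interferon were called in both directions at day 7, in shares near those of all tested genes. Of 26 tested, 4 rose and 5 fell (background 15.8% and 14.8%), among them the RNA-editing enzyme Adar (0.64), the kinase Tbk1 (0.55), the receptor Tlr3 (0.53) and Traf6 (0.39) upwards, and Rnaseh2c (−0.77), Irf8 (−0.53), the adaptor Myd88 (−0.43) and Irf3 (−0.36) downwards. Tlr3, Traf6, Myd88 and Irf3 did not pass with the length and GC correction. At day 14 Tbk1 was higher (0.51, adjusted p = 0.046) and Rnaseh2c, a subunit of the enzyme that removes ribonucleotides from DNA, lower than in controls (−0.49, adjusted p = 0.0367). These calls held in 2 and 3 of the 9 fits without 1 library. Irf8, a factor of myeloid cells, was higher at day 14 than at day 7 (0.53, adjusted p = 0.0152).

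A further list of 72 interferon-stimulated genes, 69 of them tested, had smaller median differences at day 14 than the 44 genes, with library 1 again the highest and library 2 the lowest of that group. Their median log2 difference from the control mean was −0.07, 0.01 and 0.07 in controls, 0.19, −0.13 and 0.32 at day 7 and 0.56, 0.12 and 0.41 at day 14. At day 7, 9 rose and 10 fell (background 15.8% and 14.8%), the latter led by Isg20 (−0.84), Ly6e (−0.63), Ifi27 (−0.61), Shisa5 (−0.57), Ifi30 (−0.69), Psmb8 (−0.79) and Ifitm2 (−0.53), while Trim21 rose (0.71). At day 14, 2 rose and none fell (background 1.13% and 0.632%): Ifitm3, which blocks viral entry (0.45, SE 0.111, adjusted p = 0.0436), and the helicase Ddx60 (2.43, SE 0.491, adjusted p = 0.0276). These calls held in 2 and 5 of the 9 fits without 1 library. Ddx60 had 6, 8 and 9 counts in controls, 42, 21 and 35 at day 7 and 68, 27 and 43 at day 14. At an unadjusted p under 0.05, 32 of the 69 were higher and 1 lower at day 14 (21.3% of all tested genes in either direction). DESeq2 called 8 higher (6.79% of all tested genes in either direction). Without control library 3 edgeR called 13 higher, against 0 without control library 1 (12.3% and 0.0822% of all tested genes in either direction).

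Against day 7, 11 of the 69 were higher at day 14 and none lower with edgeR (background 3.72% and 2.87%; 1 lower at an unadjusted p under 0.05 and with limma-voom). They were led by Ifitm3 (0.92, adjusted p = 9.03e-05), the immunoproteasome subunit Psmb8 (1.24, adjusted p = 4.63e-04), Shisa5 (0.61), Ly6e (0.60), Ifi27 (0.61), Isg20 (0.60), Lgals9 (1.12) and Ifi30 (0.55). All of these except Lgals9 were also called lower at day 7 than in controls, and both comparisons use the same day 7 libraries. With the length and GC correction the day 7 change of Ifitm3 was −0.16 (adjusted p = 0.327) and that of Ifitm2 −0.17 (adjusted p = 0.309). Without 1 library the number called higher was between 7 and 14.

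Markers of other cells moved with some of these groups. The summed level of 14 macrophage markers was 515 to 556 CPM in controls, 264 to 355 CPM at day 7 and 520 to 645 CPM at day 14. Cd74 alone held 262.9 to 272.5 CPM of this sum in controls, 87.5 to 108.4 CPM at day 7 and 188.6 to 235.9 CPM at day 14. Against control at day 7, 1 marker was higher, Mertk (0.90), and 4 were lower (all tested genes 15.8% and 14.8%). With the length and GC correction 1 was higher and 2 were lower. Of these 14, 8 were higher and 1, Mertk (−0.43), was lower at day 14 than at day 7 (all tested genes 3.72% and 2.87%). The higher ones included C1qa (1.09) and Lyz2 (1.45). Against control at day 14 Mrc1 (1.07) and Mertk (0.47) were higher (all tested genes 1.13%) and none was lower with edgeR (1 with DESeq2, and 1 at an unadjusted p under 0.05). These 2 calls held in 5 and 2 of the 9 fits without 1 library. By library the median difference of the macrophage markers from the control mean at day 14 was 0.56, 0.56 and 0.33, while that of the 44 interferon-stimulated genes was 1.28, 0.34 and 0.91, so the 2 sets ranked the day 14 libraries differently. The part of the macrophage markers in the changes above was not tested, and in bulk tissue fewer cells of a type and less RNA per cell cannot be told apart.

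Markers of T and NK cells were scarce. The 14 markers of T and NK cells summed to 6.76 to 8.22 CPM in controls, 3.02 to 4.83 CPM at day 7 and 5.62 to 9.74 CPM at day 14, and Cd3e had 0 to 7 counts in a library. None of the 8 tested was called by edgeR or DESeq2 in any comparison. At an unadjusted p under 0.05, 2 were lower at day 7 and 2 were higher at day 14 than at day 7, and limma-voom called 2 lower at day 7. For plasmacytoid dendritic cells, known as strong producers of interferon alpha, the defining marker Siglech had 4 to 13 counts in a library, 4 to 8 of them at day 14, and Cd300c had 0 in all 9. Other genes of that list of 9 were well expressed, among them Pacsin1 at 39.9 to 83.1 CPM, highest in day 14 library 1, Tcf4 at 20.5 to 34.8 CPM, Runx2 at 12.1 to 25.9 CPM and Ly6d at 10.7 to 20.7 CPM. The 9 genes summed to 112 to 115 CPM in controls, 105 to 133 CPM at day 7 and 104 to 138 CPM at day 14. None of the 5 tested was called by edgeR. At an unadjusted p under 0.05, 2 were higher at day 7 and 1 was lower at day 14 than at day 7, limma-voom called 1 higher and 1 lower in these comparisons, and DESeq2 called 1 lower in the second. Their part in the changes above was not tested. The 8 neutrophil markers summed to 0.494 to 2.06 CPM, with Retnlg and Ngp at 0 in all 9 libraries.

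Outside these lists, 3 genes followed the pattern of the 44 most closely, by the Pearson correlation of log2 CPM with the median of the 44 genes over 9 libraries among 10329 genes of at least 5 CPM. They were Aggf1 (r = 0.920), Adcy7 (r = 0.886) and Ctso (r = 0.886). The libraries share their depth and scaling between all genes, and the correlations are given as a description. Aggf1 had 54.7, 45.4 and 49.6 CPM in the 3 day 14 libraries and 40.2 to 47.3 CPM in the other 6. Adcy7, a membrane adenylate cyclase, had 12.6, 8.22 and 11.0 CPM at day 14 and 6.55 to 7.76 CPM elsewhere.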

How the data were processed

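RNA from sections of sublingual gland of wild-type mice was sequenced in 9 libraries. The deposited values are raw counts of reads per gene, 1 table per library. Per the submitters' processing notes, STAR, featureCounts, DESeq2 and mm10 were used; the sources used here give no role, version, setting, annotation or strand setting for them. Totals per library were 15962399 to 19441239 counts, and the common biological coefficient of variation was 16.1%. The floor of 3 counts for genes at 0 covers counting error only.

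Gene identifiers were matched to GENCODE M21 (GRCm38, which is mm10), giving symbols for 54495 of 54532. After edgeR's filter on low counts 15348 genes were fitted with edgeR 4.0.16 (R 4.3.3): TMM scaling, robust quasi-likelihood F test, 2-sided, all 9 libraries in 3 groups with 6 residual degrees of freedom, Benjamini-Hochberg adjustment over all genes, threshold 0.05. The test was checked on simulated counts. CPM are counts per 1000000 of the TMM-scaled library; log2 CPM used a prior count of 1. Alternatives were limma 3.58.1 (voom with sample weights), DESeq2 1.42.0, 2 other scalings, 2 other filters, the 6 libraries compared alone, a replicate block, an offset for exonic length and GC content, and leaving out each library. All 9 libraries differed by more than sampling noise within their groups and were counted separately. Promoters and their sequences come from RefSeq (GRCm38.p6), coordinates of genes from GENCODE M21.

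The members and all lists were chosen with earlier results of these data known. Values per library are given for every member past the threshold in any comparison, for Isg15, Ifit1, Oas1a, Mx1, Irf7, Stat2 and Cxcl10, and for the 3 members with the highest level per kilobase; others are given by range and count. Of the pathway list and the further interferon-stimulated genes, those past the threshold are named, at most 8 per list and comparison by smallest p, with Ifnar1, Ifnar2 and Jak1 whatever their result; 1 further gene of this rule is not reported here. The 3 genes outside the lists with the highest correlation to the median of the members are named too. Genes named outside these rules, such as Ddx58 or Mx2, were chosen after their values were seen.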

Additional observations from a re-analysis of the deposited data

Results flagged for a closer look

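For 9 of the 44 genes the change at day 14 differed from the change at day 7, both against the same controls, as tested by the direct comparison of day 14 with day 7 (edgeR, adjusted over all genes). The log2 difference was 1.62 for Bst2, 0.75 for Lgals3bp, 2.07 for Oas1a, 1.38 for Zbp1, 1.06 for Gbp3, 0.91 for Samd9l, 1.72 for Isg15, 0.90 for Rtp4 and 1.20 for Oas2. For each of them every day 14 library was above every day 7 library. Bst2 was called on both sides, lower than control at day 7 and higher at day 14. Bst2, Oas1a and Lgals3bp passed in all 9 fits that leave out 1 library, and the other 6 in 4 to 8 of them.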

How the results depend on the processing

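With all libraries, edgeR called 4 of the 44 genes at day 7, 9 at day 14 and 9 between the times. Both other scalings called the same 4, 9 and 9 genes. At day 7 there were 9 without a filter on low counts (7 higher), and 4 higher and 1 lower with limma-voom. The length and GC correction gave 1 (1 higher, 0 lower), and 2 with the replicate block added (0 lower). At an adjusted p under 0.1 there were 7 (5 higher). Of all tested genes, 17.1%, 39.0%, 21.7%, 20.7% and 38.4% were called at day 7 in these settings, in the same order. At day 14 there were 34 without a filter, 26 with DESeq2, 23 with limma-voom, 15 with the correction and the block, and 25 at an adjusted p under 0.1. Between the times there were 19, 14, 20, 16 and 16, against 5.09%, 9.24%, 12.2%, 5.41% and 12.0% of all tested genes. The replicate block alone gave 13 at day 14 and 11 between the times. The length and GC correction alone gave 6 at day 14, all among the original 9, and 11 between the times. The genes called among all tested at day 14 numbered 270, and 1300 without a filter, 1042 with DESeq2, 1678 with limma-voom, 157 with 6 libraries, 142 with the length and GC correction, 98 with that and the block, and 1145 at an adjusted p under 0.1. Between the times they were 1011, and 1874 with limma-voom and 1835 at an adjusted p under 0.1. The replicate block gave 746 there, and the length and GC correction 927. The cause of these shifts was not tested.

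Leaving out 1 library gave 2 to 6 calls at day 7 (1 to 5 higher, 1 to 2 lower), 0 to 20 at day 14 and 4 to 18 between the times. The median log2 fold change ran from 0.084 to 0.308, from 0.636 to 1.070 and from 0.542 to 0.966. Among all tested genes there were 3106 to 5314, 13 to 1939 and 330 to 1415 calls. Correlations of same-numbered libraries of different groups were −0.113 to 0.028, which cannot show whether the numbers pair libraries. Library 2 had the lowest median of the 44 genes in each group (−0.108 in controls, −0.139 at day 7 and 0.342 at day 14). With the replicate block 4 genes were called higher at day 7 (28.1% of all tested genes called in either direction). At day 14 the block gave 13 of the 44 genes, 7 of them among the original 9, and 113 of all genes. Cxcl10 at day 7 was 1.11, and between −0.09 (without day 7 library 3) and 1.58 on leaving out 1 library. Over single genes, 696 results kept direction and side of the threshold, 36 passed it newly and 84 no longer did. Genes with few counts, such as Cxcl10, Oas3 and Cd3e, are limited by depth.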
